A study of Mus musculus with 3 samples.

Results

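The cholesterol and fatty acid synthesis module was a set of 31 genes, taken by symbol from the 32285 genes listed in the files. It held 8 genes of the mevalonate and isoprenoid steps, 11 genes that carry squalene to cholesterol, 6 genes that regulate sterol-responsive transcription or move sterols inside the cell, and 6 genes of fatty acid synthesis and desaturation. All 31 symbols were present in the 3 libraries. Cells of mouse bone marrow were captured in droplets and their RNA was read from the 3' end, in 2 libraries of the genotype Ep300-Znf384-V5-HA, called fusion 1 and fusion 2 here, and 1 wild-type library. Ep300-Znf384 joins a histone acetyltransferase to a zinc finger protein and carries V5 and HA tags, and fusions of ZNF384 are known from acute leukemia. All 3 libraries came from males aged 6 weeks, and no source used here names the promoter that drives the fusion. Each library was a pool of 5000 live cells sorted from whole marrow and 5000 sorted from lineage-negative marrow, both after red cell lysis, so the shares of cell types do not reflect those of marrow. The question here was how each of the 31 genes is expressed in each marrow cell type, and whether that level differs between fusion and wild-type cells.

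Cholesterol is made from acetyl-CoA through mevalonate, isoprenoids and squalene, and fatty acids are made from the same precursor through malonyl-CoA. SREBP transcription factors switch on the genes of both branches. When sterols are scarce, SCAP escorts SREBP from the endoplasmic reticulum to the Golgi, where it is cut and released, and when sterols are plentiful, INSIG proteins hold SCAP back. Dividing blood progenitors need these lipids for membranes. Isoprenoids are also used to anchor signalling proteins to membranes.

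Promoter windows of the members whose results stand out are shown first, with that of Hmgcs1 as a member that holds a sterol element. RefSeq windows (GRCm38.p6, from 250 bases before to 50 bases after the start of the gene) were found for 25 of the 31 members, as 33 windows, and there was none for Scd1. Capitals mark CCAAT (the CCAAT box), GGGCGG (the GC box bound by SP1), CACGTG (an E-box) and CACCCCAC (a core of the sterol element), each searched on both strands. The Sc5d window is chr9:42264251-42264550 on the minus strand, the Pmvk window chr3:89454291-89454590 on the plus strand, and the Hmgcs1 window chr13:119690101-119690400 on the plus strand.
Sc5d: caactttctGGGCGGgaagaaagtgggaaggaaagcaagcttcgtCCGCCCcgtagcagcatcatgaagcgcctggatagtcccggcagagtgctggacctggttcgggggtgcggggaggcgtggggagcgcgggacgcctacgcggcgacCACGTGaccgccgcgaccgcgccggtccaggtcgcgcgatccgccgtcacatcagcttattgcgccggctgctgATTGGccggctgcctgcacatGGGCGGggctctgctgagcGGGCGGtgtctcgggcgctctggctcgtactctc
Pmvk: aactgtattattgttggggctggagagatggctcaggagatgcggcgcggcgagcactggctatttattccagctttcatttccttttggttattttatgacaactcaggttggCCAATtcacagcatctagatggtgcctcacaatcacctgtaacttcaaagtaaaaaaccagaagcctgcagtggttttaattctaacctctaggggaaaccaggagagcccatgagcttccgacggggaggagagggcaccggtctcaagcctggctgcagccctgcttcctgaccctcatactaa
Hmgcs1: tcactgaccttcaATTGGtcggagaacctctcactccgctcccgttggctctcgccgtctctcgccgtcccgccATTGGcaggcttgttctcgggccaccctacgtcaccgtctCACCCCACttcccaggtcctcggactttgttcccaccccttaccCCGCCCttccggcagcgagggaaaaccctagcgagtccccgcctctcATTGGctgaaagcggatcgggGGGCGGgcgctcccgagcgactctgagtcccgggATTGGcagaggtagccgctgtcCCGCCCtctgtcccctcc
The Sc5d window held 1 CCAAT box, 4 GC boxes and 1 E-box, and the Pmvk window held 1 CCAAT box and none of the other letters searched. The Hmgcs1 window held 4 CCAAT boxes, 3 GC boxes and 1 sterol element core. Across all 33 member windows, CCAAT was present in 66.7% against 37.4% of all 32851 windows, and GGGCGG in 72.7% against 35.7%. CACGTG was present in 18.2% of member windows against 7.15% of all windows. CACCCCAC was present in 6.06% against 2.87%, and its holders were Acat2 and Hmgcs1. These are letter matches in a window, not measured binding.

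The libraries held 8122 to 9354 cell barcodes and 93262028 to 111836603 UMIs (counted RNA molecules), and 6895 to 7431 cells per library were kept. Between 9 and 17 barcodes of kept cells were shared by any pair of libraries. Ep300 stood at 69.2 and 52.95 CPM (a gene's UMIs as counts per 1e6 UMIs) in fusion 1 and fusion 2 and at 85.85 in wild type over all kept cells, and Zfp384, the mouse gene of ZNF384, at 26.49 and 19.53 against 15.57. The 3' tags do not show whether a molecule came from the fusion. Clustering gave 27 clusters, which were joined by markers into 17 classes, and 16 of these held at least 50 cells in each library and were compared. The class left out was plasmacytoid dendritic cells, with 31 and 47 cells in fusion and 95 in wild type. Cluster 8 scored low for every marker list (highest for erythroid progenitors, with Ctla2a, St8sia6, F2r, Mc5r and Apoe leading), as did cluster 14 (highest for monocytes, with Irf8, Runx2 and Gria3 leading), so both are called by number. Neutrophil clusters were split by genotype. The mature class held clusters 2 and 4, with 820 and 773 cells of fusion 1, 597 and 592 of fusion 2 and 0 and 1 of wild type, and cluster 7, with 1082 cells of wild type and 6 and 9 of the fusion libraries. The intermediate class, whose cells carried markers of both immature and mature neutrophils, held cluster 6 of the fusion libraries and cluster 12 of wild type. The 10 leading genes of cluster 6 included 2 immature markers (Mmp8 and Ltf) and 1 mature marker (Mmp9), and those of cluster 12 included 2 mature markers (Retnlg and Mmp9). The sum of immature markers in this class was 101800 and 104000 CPM in fusion against 70130, and that of mature markers 17900 and 18230 against 31620. Whether the libraries came from separate animals is not stated in the labels, and the p-values then cover only the spread between these samples, which may be technical. That spread was estimated with 1 residual degree of freedom, since only fusion was sequenced as 2 libraries. In edgeR this estimate was combined with a spread shared across genes. The prior degrees of freedom that weight the shared value ran from 5.59 in megakaryocytes to infinite in classes such as pro-B cells. Where they were infinite, only the shared value was used. Genotype cannot be told apart from whatever else is particular to the single wild-type library.

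The module was expressed in every class, and its summed level depended on the cell type. Summed over the 31 genes, mature neutrophils had the lowest level, at 275.5 and 273.2 CPM in the fusion libraries and 282.6 in wild type. Of the 16 classes compared, pre-B to mature B cells had the highest sums, at 1097 and 1082 CPM against 898 in wild type. Cluster 14 followed, at 997.1 and 916.5 against 991.3, and then megakaryocytes, at 958 and 937.1 against 977. Stem and multipotent progenitors came next, at 938.3 and 907.3 against 970. Erythroid progenitors lay in between, at 831.8 and 790.9 against 742.7. The sum is led by the most abundant members. Across the 16 classes, Spearman's rho between this sum and the summed level of 15 S phase genes was 0.421, 0.412 and 0.409 in fusion 1, wild type and fusion 2, as a description over classes that share libraries and depth. With 15 G2 and M phase genes the same rho was 0.212, 0.0927 and 0.241.

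**Figure D1:**
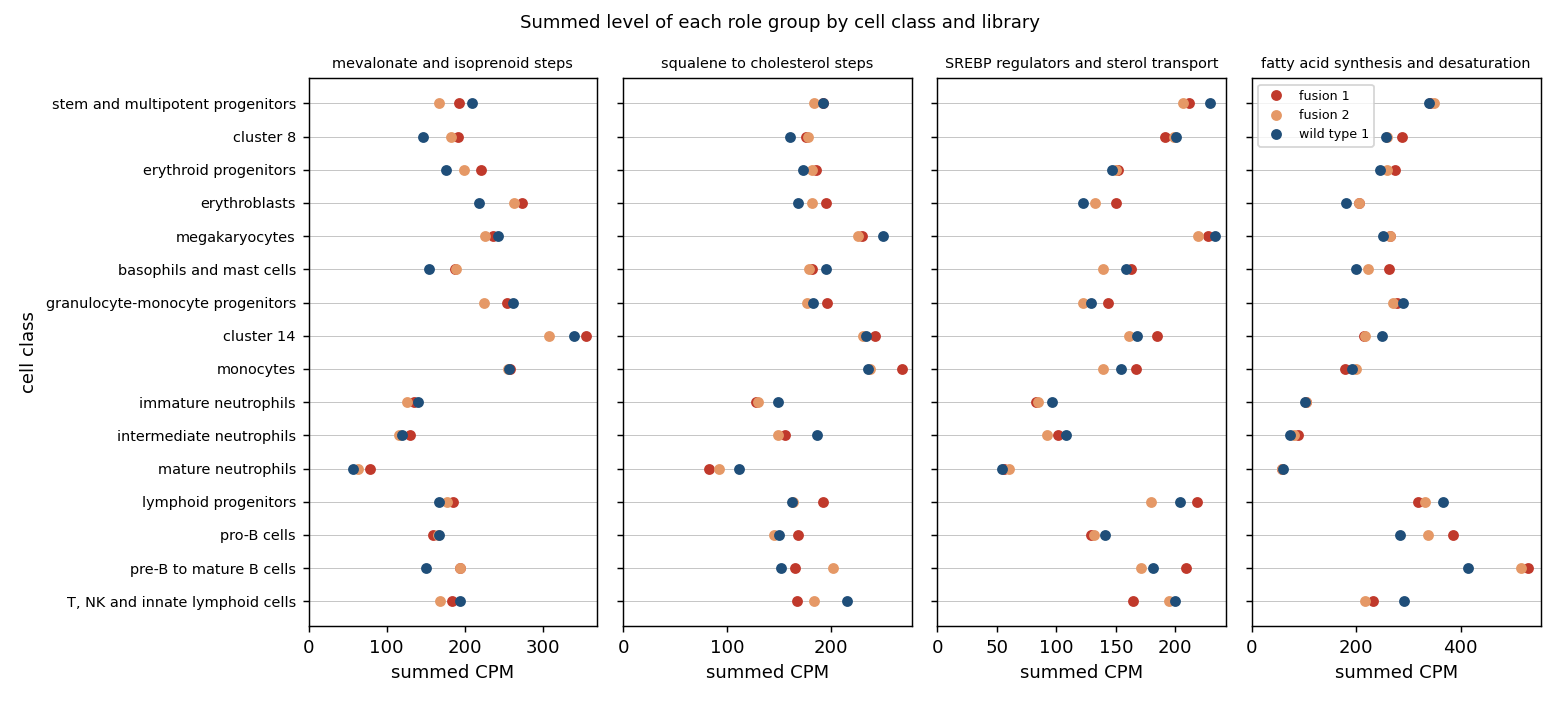
Summed CPM (x axis) of the members of each role group, one panel per group, in each cell class (y axis); each point is 1 library. The neutrophil classes have the lowest sums of the fatty acid group, and pre-B to mature B cells the highest, at 529.5 and 515 CPM in fusion and 414.9 in wild type.

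Within the module, members followed different cell types among the 16 compared classes, as the map of levels shows. Fdps, which makes farnesyl diphosphate, was highest in cluster 14 (mean of the 3 libraries 190.9 CPM) and lowest in mature neutrophils (8.69). In plasmacytoid dendritic cells, which were not compared, Fdps stood at 207.2 and 285.1 plain CPM in fusion and 287.3 in wild type. Ebp, a sterol isomerase, was highest in monocytes (113.3 CPM), and Stard4, a carrier that moves cholesterol between membranes, in megakaryocytes (82.2 CPM against 1.78 in mature neutrophils). Scd2, a desaturase that makes monounsaturated fatty acids, was highest in stem and multipotent progenitors (149.6 CPM) and lowest in intermediate neutrophils (7.38). Elovl6, which lengthens fatty acids, was highest in pro-B cells (56.0 CPM) and lowest in immature neutrophils (0.688). Acly, which makes cytosolic acetyl-CoA from citrate and so feeds both branches, varied least of the fatty acid genes, from 37.2 CPM in mature neutrophils to 73.7 in monocytes. Insig2, a retention factor for SCAP, varied between 9.21 and 17.5 CPM. Scd1, another desaturase gene, was concentrated in the B lineage and in erythroblasts: 268.4 CPM in pre-B to mature B cells, 18.13 and 20.97 in fusion and 20.69 in wild-type erythroblasts, and 0 in all 3 libraries in cluster 14.

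**Figure D2:**
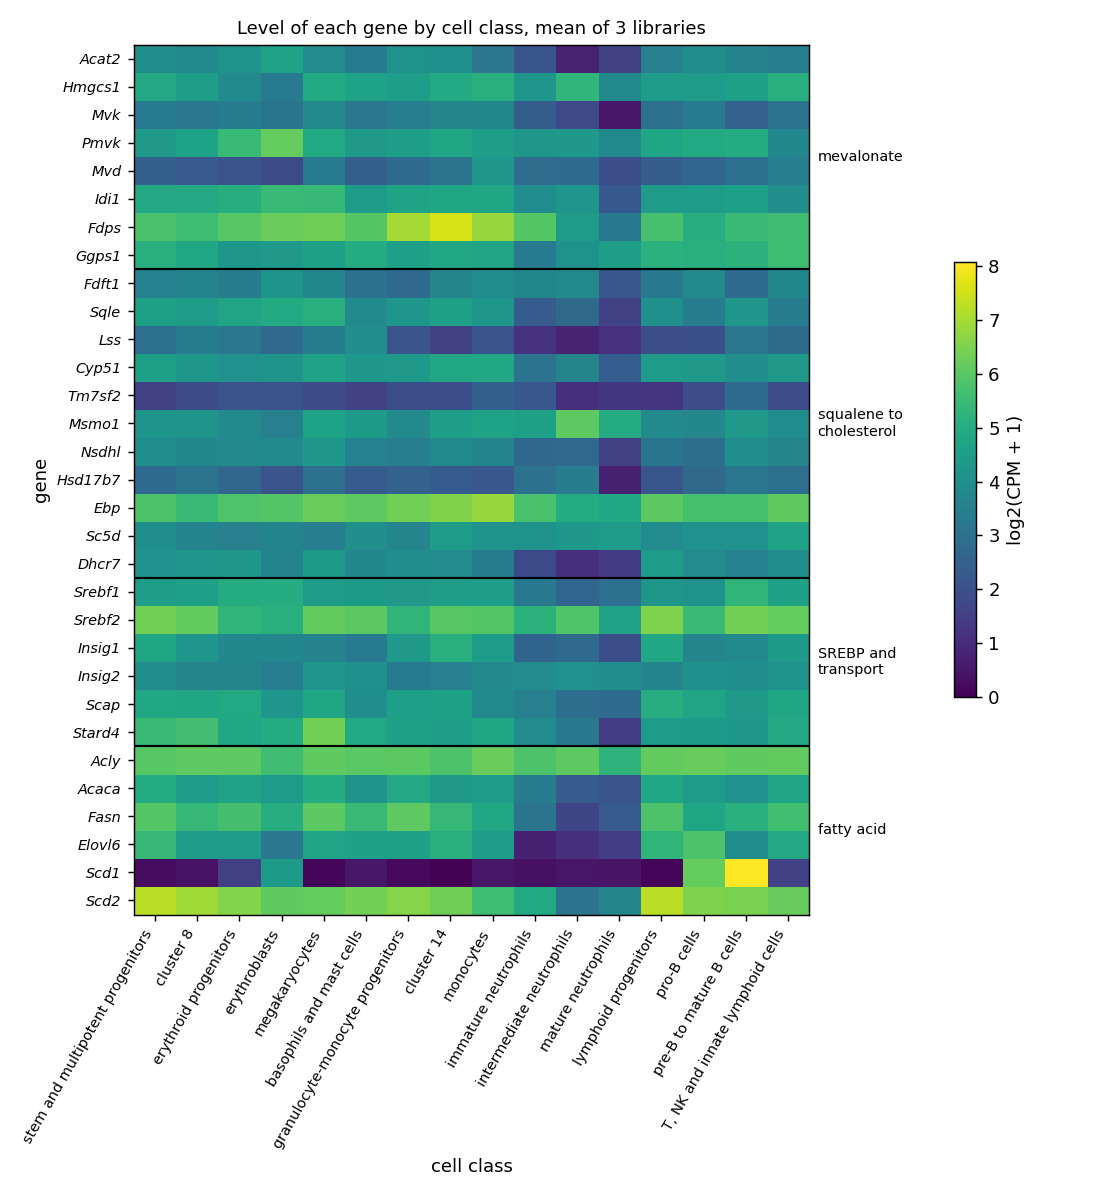
Level of the 31 genes (rows, grouped by role) in 16 cell classes (columns) as log2 of the mean CPM of the 3 libraries plus 1. Scd1 is bright in pre-B to mature B cells and pro-B cells, with means of 268.4 and 70.6 CPM, and dark in most others, and the fatty acid rows other than Acly darken in the neutrophil classes.

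Neutrophil maturation took the members apart. Fasn, the fatty acid synthase gene, stood at 64.38 and 66.38 CPM in the fusion libraries and 68.39 in wild type in granulocyte-monocyte progenitors, and at 6.98, 7.62 and 8.37 in immature neutrophils. Fdps went from 122.2 and 116.6 CPM against 137.9 in these progenitors to 26.77 and 19.09 against 17.27 in intermediate neutrophils. Both genes were thus lower in the later class in each of the 3 libraries. Msmo1, the sterol methyl oxidase that removes methyl groups from lanosterol products, moved the other way. It stood at 14.63 and 11.75 CPM against 14.61 in granulocyte-monocyte progenitors, at 58.29 and 64.32 against 74.13 in intermediate neutrophils, and at 28.79 and 35.56 against 27.08 in mature neutrophils. Hmgcs1, which makes HMG-CoA at the entry to the mevalonate pathway, had the same peak, at 39.55 and 35.17 against 41.68 in intermediate neutrophils and 16.56 and 13.85 against 10.3 in mature ones. For both genes the intermediate class was the highest of the 16. In plasmacytoid dendritic cells, outside the 16, Msmo1 stood at 159.4 and 139.1 plain CPM against 142.7, and Hmgcs1 at 148.8 and 170.4 against 190.9. No test was made between stages, since the same libraries supply all of them.

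**Figure D3:**
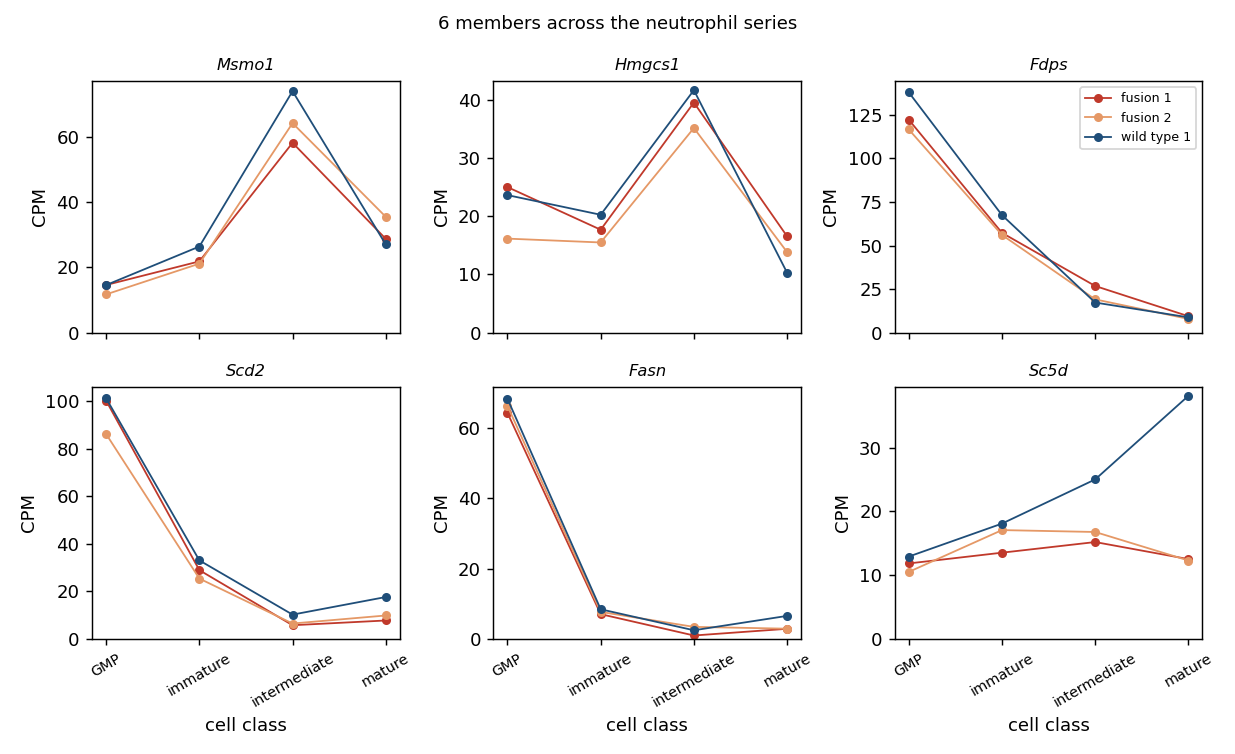
CPM (y axis) of 6 members in granulocyte-monocyte progenitors (GMP) and 3 neutrophil classes (x axis), with 1 line per library. Msmo1 and Hmgcs1 peak in the intermediate class in all 3 libraries. Fdps drops at each stage, Fasn as far as the intermediate class, and Sc5d climbs to 38.1 in wild type only.

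Between genotypes the module as a whole differed little. Of 496 class and member pairs, 421 passed the filter on low counts and were tested with edgeR's quasi-likelihood test, and 9 members were tested in all 16 classes. In these tests 1 pair was higher in fusion (Scd1 in pro-B cells) and 1 was lower (Sc5d in mature neutrophils) at a Benjamini-Hochberg adjusted p under 0.05, against 1.79% of all gene and class pairs tested. An unadjusted p under 0.05 was reached by 17 higher and 21 lower pairs. Over all genes the share at this threshold depended on the class. It was lowest in lymphoid progenitors, with 419 of 8633 genes, and highest in basophils and mast cells, with 2044 of 10219. Between these lay erythroid progenitors with 1129 of 12816, erythroblasts with 923 of 9627, immature neutrophils with 1228 of 10422 and mature neutrophils with 1515 of 9168. The counts by group given below are to be read beside these shares. DESeq2, run on the same sums, called 0 of the 379 pairs to which it gave an adjusted p. In 406 of the 421 pairs the log2 fold change was smaller than 1 in size, and of the 15 others 12 had a mean level under 20 CPM. Both fusion libraries lay above wild type in 37.5% of member pairs, against 35.2% of all gene pairs, and below it in 33.5% against 34.8%. In the sum of all kept cells 1 of 31 members (Pmvk) was called by edgeR, against 15.8% of all genes, in a sum that also reflects the unequal numbers of each cell type per library.

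**Figure D4:**
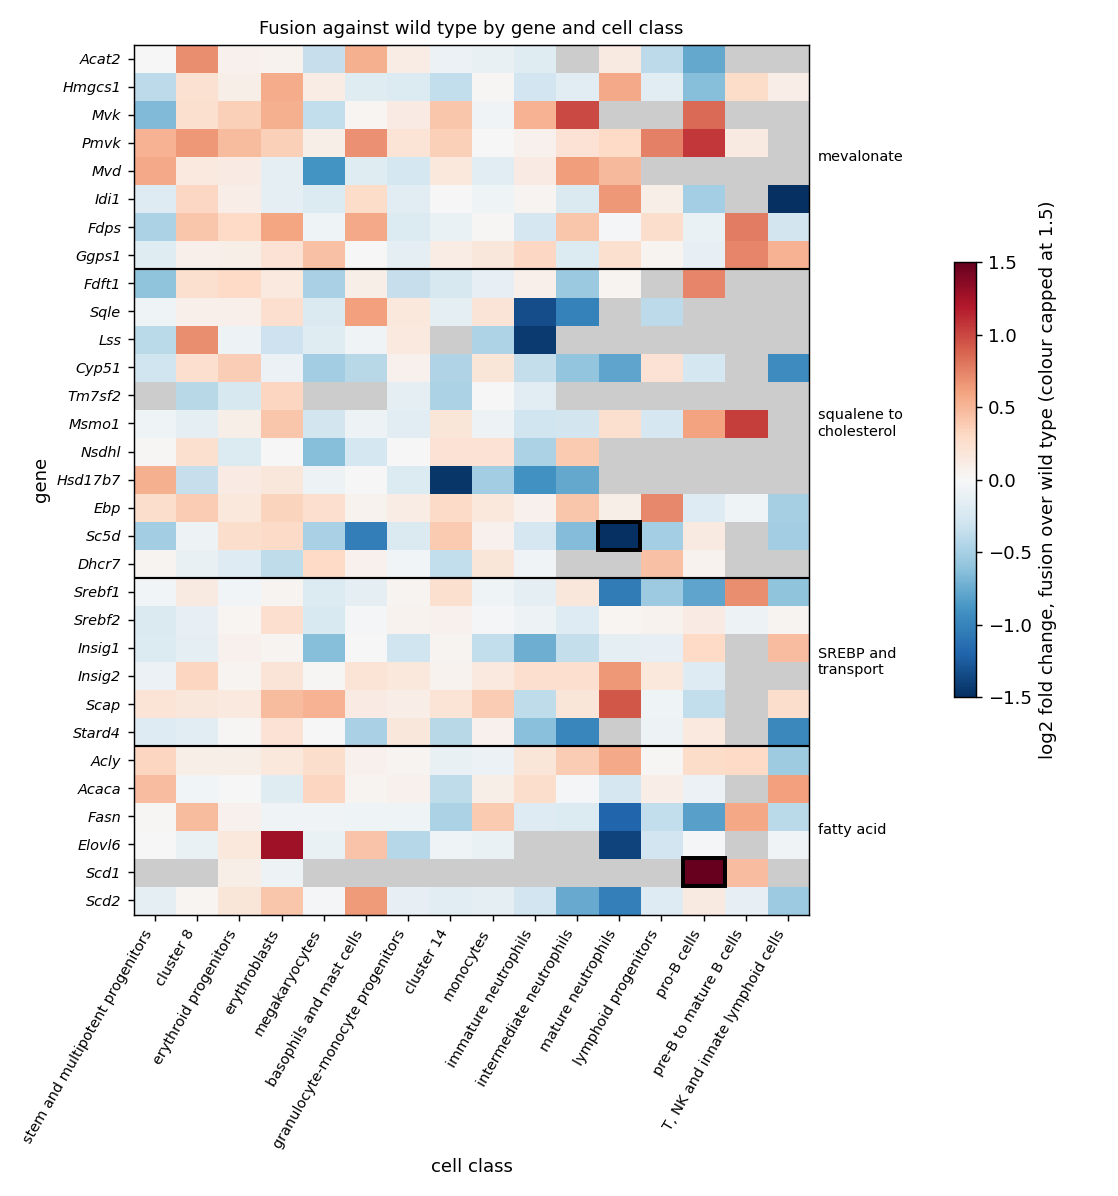
Log2 fold change of fusion over wild type for 31 genes (rows, grouped by role) in 16 cell classes (columns); red is higher in fusion, blue lower, grey not tested, and colour is capped at 1.5. The 2 boxed cells, Scd1 in pro-B cells (2.07) and Sc5d in mature neutrophils (−1.62), are those called by edgeR.

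Among the mevalonate and isoprenoid genes, Pmvk was higher in fusion over all cells and leaned the same way in most classes. Pmvk (phosphomevalonate kinase, ENSMUSG00000027952, chromosome 3, 89454541 to 89469013, plus strand) overlaps no other gene in GENCODE M21. It stood at 41.1 and 35.8 CPM in fusion over all cells and at 23.7 in wild type (log2 fold change 0.70 ± 0.14 SE, edgeR Benjamini-Hochberg adjusted p = 0.00157). In its 15 tested classes both fusion libraries were above wild type in 10 and below it in 0, and no single class was called by edgeR. Over all gene and class pairs the shares were 35.2% above and 34.8% below. All classes share the same 3 libraries, so counts of classes, here and below, are not independent repeats. The level of Pmvk was highest in erythroblasts, at 78.12 and 75.01 CPM against 59.94. In erythroid progenitors it stood at 51 and 45.79 CPM against 34.77 (0.48 ± 0.13, edgeR adjusted p = 0.121). In pro-B cells the values were 34.47 and 37.22 against 17.17 (1.06 ± 0.36, edgeR adjusted p = 0.177). Both fusion libraries also lay above wild type in lymphoid progenitors, at 30 and 31.44 CPM against 18.22, in cluster 8, at 29.82 and 25.91 against 17.7, and in stem and multipotent progenitors, at 23.45 and 20.13 against 15.1. In monocytes, immature and intermediate neutrophils, megakaryocytes and pre-B to mature B cells the wild-type value lay between those of the fusion libraries. In monocytes the wild-type value was 21.38, between 21.01 and 21.6. The T, NK and innate lymphoid class, where Pmvk did not pass the filter, had 0 and 16.01 CPM in fusion and 21.12 in wild type. The classes in which Pmvk was most abundant were also enlarged in fusion, with 1666 and 1561 erythroid progenitors in fusion against 716 in wild type, and the part of this in the all-cell value was not tested.

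The remaining mevalonate genes were not called by edgeR or DESeq2 in any class. Of 115 tested pairs of this group, Pmvk included, 9 were higher and 2 lower at an unadjusted p under 0.05. Fdps had its smallest unadjusted p in basophils and mast cells and in erythroblasts, 2 classes picked after the values were seen. It stood at 62.74 and 71.63 CPM against 45.4 in basophils and mast cells (0.57 ± 0.19, edgeR adjusted p = 0.0626) and at 83.73 and 84.21 against 55.68 in erythroblasts (0.59 ± 0.16, edgeR adjusted p = 0.267). The basophil and mast cell class joined clusters 10 and 23 in unequal parts, with 544 of 604 wild-type cells in cluster 10 but 118 of 197 and 157 of 273 fusion cells. Within cluster 10 Fdps stood at 52.71 and 47.42 plain CPM in fusion against 39.06, and within cluster 23 at 80.71 and 94.37 against 64.23. Over its 16 classes, both fusion libraries lay above wild type for Fdps in 6 and below it in 5. Ggps1, which makes the geranylgeranyl diphosphate used to anchor small GTPases, lay above in 9 and below in 2 of 16. Mvk, the mevalonate kinase gene, lay above in 8 and below in 2 of 12. For Acat2, Hmgcs1, Mvd and Idi1 the classes were divided, with 3 to 5 above and 3 to 6 below for each gene.

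Sc5d was the member that fell among the squalene to cholesterol genes. Sc5d (sterol C5-desaturase, which acts late in cholesterol synthesis, ENSMUSG00000032018, chromosome 9, 42251595 to 42264256, minus strand) overlaps no other gene in GENCODE M21. In mature neutrophils it stood at 12.5 and 12.3 CPM in fusion and 38.1 in wild type, from 49, 39 and 100 UMIs. The log2 fold change was −1.62 ± 0.25 (edgeR Benjamini-Hochberg adjusted p = 0.00518), in a class where 5.2% of genes were called. DESeq2 gave −1.64 ± 0.55 with an adjusted p of 0.0756. In wild type the level was higher in each later neutrophil class, at 12.89 CPM in granulocyte-monocyte progenitors, 18.07 in immature, 25.01 in intermediate and 38.14 in mature neutrophils, while both fusion libraries stayed between 10.48 and 17.05. The window printed for Sc5d is the start of this gene.

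The mature neutrophils compared were not matched in stage by their markers. The summed level of 8 immature neutrophil markers was 18550 and 21960 CPM in fusion against 7412 in wild type, with both fusion libraries above for 7 of the 8, and that of 8 mature markers 32070 and 32270 against 38690, with both below for 7 of the 8. No marker of either list was at 0. Within the fusion libraries, cluster 4 had 21.92 and 15.61 plain CPM of Sc5d, cluster 2 had 8.62 and 8.84, and the wild-type cluster 7 had 37.04. With mature and intermediate neutrophils joined, an alternative chosen after seeing the data, Sc5d stood at 13.59 and 14.34 CPM against 31 (−1.15 ± 0.23, edgeR adjusted p = 0.00203). Joining the classes does not match the libraries in stage, and the part of stage in the Sc5d difference was not tested. In basophils and mast cells Sc5d stood at 14.91 and 7.68 CPM against 22.02, not called by edgeR, and in erythroid progenitors at 11.41 and 10.75 against 9.22.

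The difference between fusion and wild type was itself different between mature neutrophils and erythroid progenitors for 2 of 31 members, against 4.04% of all genes tested for this. For Sc5d the log2 fold change was lower in neutrophils by 1.94 ± 0.32, coded as a value of −1.94 (edgeR interaction term, Benjamini-Hochberg adjusted p = 3.15e-07). For Scd2 the value was −1.26 ± 0.32 (edgeR adjusted p = 0.00366). Both classes came from the same 3 libraries, of which 1 was wild type. Their sums are therefore not independent samples, and these p-values do not stand for further animals. Scd2 stood at 7.65 and 9.76 CPM in fusion and 17.54 in wild type in mature neutrophils (−1.02 ± 0.34, edgeR adjusted p = 0.152) and at 104.8 and 93.82 against 87.67 in erythroid progenitors. Neither class alone called Scd2. With Leiden resolution 0.5, where fewer classes are formed and neutrophil stages merge, 10 members passed this test, against 4.8% of all genes.

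The other sterol genes were not called by edgeR or DESeq2 in any class. Of 136 tested pairs of the group, Sc5d included, 2 were higher and 9 lower at an unadjusted p under 0.05. Ebp lay above wild type in both fusion libraries in 13 of 16 classes and below it in 2, with 123.9 and 111.1 CPM against 105.1 in monocytes. In lymphoid progenitors, a class picked after the values were seen, Ebp stood at 85.27 and 62.88 CPM against 44.35 (0.72 ± 0.26, edgeR adjusted p = 0.497). Cyp51, the lanosterol demethylase gene, lay below in 9 of 15 classes and above in 5. Hsd17b7, a sterol ketoreductase, lay below in 7 of 11 and Tm7sf2, a sterol reductase, in 3 of 7. Msmo1 lay above in 4 and below in 5 of 15, Sqle (squalene epoxidase) above in 4 and below in 5 of 12, and Lss (lanosterol synthase) above in 2 and below in 5 of 9. Fdft1 (squalene synthase), Dhcr7 (the reductase that ends one route to cholesterol) and Nsdhl (a sterol dehydrogenase) had equal numbers of classes above and below, at 5 of 13, 4 of 12 and 4 of 11 each way.

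Srebf2, the gene of the SREBP that favours cholesterol synthesis, had log2 fold changes between −0.23 and 0.25 over its 16 classes. In stem and multipotent progenitors it stood at 73.75 and 80.89 CPM against 90.03, and in monocytes at 60.4 and 56.23 against 59.5. Srebf1, whose product favours fatty acid genes, lay above in 4 and below in 5 of 16 classes, and its values ranged from −1.05 in mature neutrophils to 0.70. Insig1, a retention factor that is itself an SREBP target, lay above in 2 and below in 5 of 15, and Insig2 above in 7 and below in 1 of 14. Scap lay above in 9 and below in 3 of 15, with values of up to 0.93. Stard4 lay below in 8 of 14 and above in 4, and in megakaryocytes, where it was most abundant, the 3 libraries stood at 82.28, 81.91 and 82.44 CPM. No regulator was called by edgeR or DESeq2 in any class, and 0 higher and 6 lower of 90 tested pairs had an unadjusted p under 0.05.

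Scd1 in pro-B cells was the strongest difference of the module. Scd1 (stearoyl-CoA desaturase 1, which makes oleate from stearate, ENSMUSG00000037071, chromosome 19, 44394455 to 44407879, minus strand) overlaps no other gene in GENCODE M21. It stood at 93.4 and 95.9 CPM in fusion and 22.5 in wild type, from 65, 85 and 42 UMIs in 145, 156 and 325 cells. The log2 fold change was 2.07 ± 0.30 (edgeR Benjamini-Hochberg adjusted p = 3.35e-09), in a class where 0.902% of genes were called. Prior degrees of freedom were infinite in this class, so the spread behind this p was shared across genes. DESeq2 gave the same size with a wider error and did not call it (2.07 ± 0.56, adjusted p = 0.171). At least 1 Scd1 UMI was found in 28.3% of pro-B cells in fusion 1 (exact 95% interval 21.1 to 36.4), 33.3% in fusion 2 (26.0 to 41.3) and 10.2% in wild type (7.09 to 13.96). With every cell thinned to 1000 UMIs, and 0 cells left out, the shares were 9.66%, 10.9% and 3.69% in the same order. In granulocyte-monocyte progenitors, which have far deeper cells (median 18147 to 21914 UMIs against 2963 to 3156.5 in pro-B cells), the share with a Scd1 UMI was 0.200% in fusion 1, 0.327% in fusion 2 and 0.427% in wild type. That share lay far below those of pro-B cells in each library. Erythroblasts, also deep (median 25047 to 26164 UMIs), had a Scd1 UMI in 28.3% and 34.0% of fusion cells and in 34.3% of wild-type cells. The exact intervals cover counting error only.

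Single B cell markers differed beside Scd1, in both directions. Ms4a1, the CD20 gene of later B cells, stood at 163.8 and 175.9 CPM against 48.83 in pro-B cells, and Rag1, a recombinase gene, at 532.9 and 301.1 against 162.6. Cd74, from the same list of later B cell markers as Ms4a1, stood at 179.6 and 101.5 against 212.5. The summed level of 8 pro-B markers was 9353 and 9249 CPM against 7654, with both fusion libraries above for 6 of 8. That of 9 pre-B to mature B markers was 7423 and 7184 against 7092, with 4 above, 3 below and 0 at 0. Summed S phase genes stood at 2270 and 2746 CPM against 3001. In pre-B to mature B cells, where Scd1 was most abundant, it stood at 282.6 and 308 CPM against 214.7 and was not called, in a class where 0.958% of genes were. With pro-B and pre-B to mature B cells joined, an alternative chosen after seeing the data, Scd1 stood at 160.9 and 157.3 CPM against 83.04 (0.94 ± 0.23, edgeR adjusted p = 0.00472). Joining the classes does not match the libraries in stage, and the part of B cell stage in the Scd1 difference was not tested.

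**Figure D5:**
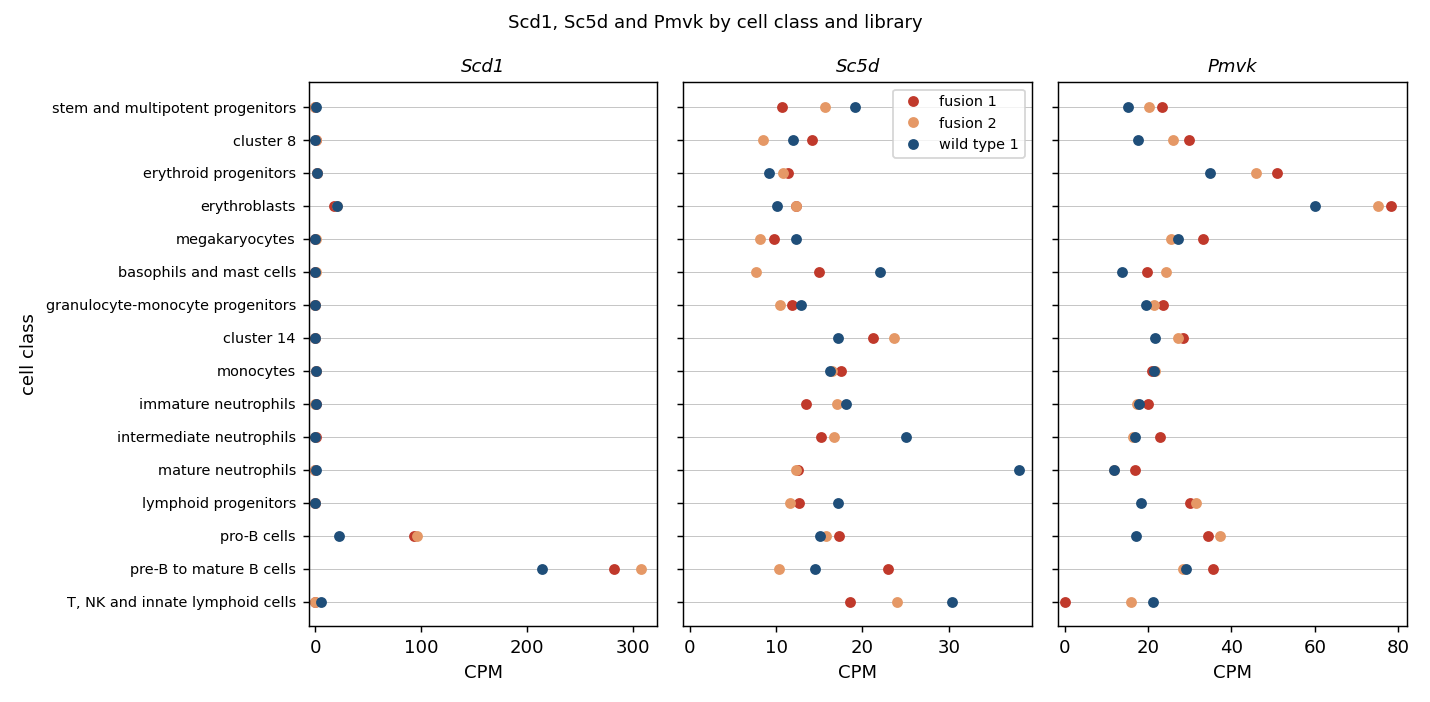
CPM (x axis, from 0) of Scd1, Sc5d and Pmvk in each cell class (y axis); each point is 1 library. In pro-B cells both fusion points of Scd1 lie at 93.4 and 95.9 and wild type at 22.5, in mature neutrophils the wild-type point of Sc5d stands alone at 38.1, and no class has both fusion points of Pmvk below wild type other than the untested T, NK and innate lymphoid class.

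The other fatty acid genes were not called by edgeR or DESeq2 in any class. Of 80 tested pairs of the group, Scd1 included, 6 were higher and 4 lower at an unadjusted p under 0.05. Acly lay above wild type in both fusion libraries in 11 of 16 classes and below it in 3. In mature neutrophils, picked after the values were seen, it stood at 42.56 and 40.91 CPM against 28.22 (0.56 ± 0.23, edgeR adjusted p = 0.259). Fasn leaned the other way, below in 10 of 16 classes and above in 4. In pro-B cells, where Scd1 rose, Fasn stood at 15.8 and 24.81 CPM against 36.49, and Elovl6 at 57.46 and 54.13 against 56.34. Scd2 lay below in 8 of 16 classes and above in 3, and in basophils and mast cells it stood at 110.6 and 75.89 CPM against 59.27 (0.64 ± 0.20, edgeR adjusted p = 0.0558). Within that class Scd2 stood at 46.58 and 41.39 plain CPM against 32.34 in cluster 10 and at 194.8 and 108.6 against 184.5 in cluster 23. Acaca, which makes malonyl-CoA, lay above in 6 and below in 3 of 15 classes, and Elovl6 above in 3 and below in 4 of 13.

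By class, erythroblasts, erythroid progenitors and the low-scoring cluster 8 leaned toward fusion and several other classes away from it. None of these classes had a called member. Cluster 8 scored 0.7 for erythroid progenitors and 0.54 for stem and multipotent progenitors, so it is not counted as erythroid. In erythroblasts both fusion libraries lay above wild type for 20 of 31 members, against 37.6% of all genes, and the median log2 fold change was 0.19 for members and 0.00254 for all genes. The called share of all genes there was 0.415%. In erythroid progenitors the count was 19 of 31 against 36.2%, with 1.34% of all genes called, and in cluster 8, where 0.186% were called, it was 18 of 30 against 37.2%. Of all members tested, 26 of 31 had positive values in erythroid progenitors and 20 of 30 in cluster 8. The median log2 fold change in erythroid progenitors was small, at 0.0856 for members and 0.00117 for all genes. In cluster 8 these medians were 0.145 and 0.00285. All 8 mevalonate genes had positive values in both classes, with sums of 220.7 and 199.6 CPM against 176.5 and 192.1 and 182.1 against 146.1. Their sum in erythroblasts was 273.6 and 263.8 CPM against 218.2. Summed over the module, erythroblasts stood at 823.9 and 784 CPM against 689.5. Beside this, 9 erythroblast markers summed to 7947 and 8621 CPM against 14100 in that class, with both fusion libraries below for 7 of 9, and 15 S phase genes to 4439 and 4542 against 4980. The part of these in the member counts was not tested.

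In immature neutrophils both fusion libraries lay below wild type for 16 of 29 members, against 36.3% of all genes. The median log2 fold change in this class was −0.19 for members and 0.00184 for all genes. There 1.88% of all genes were called. Of the 11 squalene to cholesterol genes 9 had negative values, with Msmo1 at 21.88 and 21.18 CPM against 26.44. The 3 members with the smallest adjusted p there, picked after the values were seen, were Hsd17b7, Sqle and Stard4. Hsd17b7 stood at 5.82 and 5.17 CPM against 10.3 (−0.90 ± 0.25, edgeR adjusted p = 0.139), Sqle at 3.61 and 1.81 against 6.91 (−1.33 ± 0.39, adjusted p = 0.156) and Stard4 at 10.2 and 13.4 against 18.2 (−0.62 ± 0.21, adjusted p = 0.229). None of the 3 was called in the main setting. All 3 passed the edgeR threshold with no filter on low counts and with members allowed in clustering. Both settings reuse the same libraries and are not an independent check. In the second, the members can also help to form the classes in which they are tested. The size of the Sqle value depended on the library, at −1.80 without fusion 1 and −0.89 without fusion 2. Beside this, 8 granulocyte-monocyte progenitor markers summed to 6257 and 6220 CPM against 11260 in that class, with both fusion libraries below for 8 of 8, and their part was not tested. In megakaryocytes 17 of 29 members lay below, against 35.9% of all genes, and in stem and multipotent progenitors 15 of 29, against 35.2%. Megakaryocytes had 0.0% of genes called by edgeR (0 of 9784, with 693 at an unadjusted p under 0.05 and 3 called by DESeq2), and stem and multipotent progenitors 0.278%. Called shares in the classes with no called member were 5.87% in intermediate neutrophils, 7.03% in basophils and mast cells, 2.27% in T, NK and innate lymphoid cells, 1.81% in cluster 14, 0.834% in monocytes, 0.463% in lymphoid progenitors and 0.117% in granulocyte-monocyte progenitors.

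Genes that act around the pathway were taken from lists of related functions. In the list of 8 sterol efflux and LXR genes, 3 of 108 class and gene pairs were higher and 0 lower, and all 3 were Abcg1. Of all gene and class pairs tested, 1.79% were called in either direction. Abcg1 (ENSMUSG00000024030, chromosome 17, 31057675 to 31117988, plus strand) exports cholesterol to lipoproteins, and it overlaps the small gene Gm25447 on its own strand. It stood at 126.1 and 121.8 CPM in fusion against 50.34 in wild type in mature neutrophils (1.30 ± 0.21, edgeR Benjamini-Hochberg adjusted p = 0.00648). In intermediate neutrophils it stood at 41.93 and 44.89 against 13.1 (1.73 ± 0.27, edgeR adjusted p = 9.9e-07). In immature neutrophils, where it was less abundant and is named after its values were seen, it stood at 25.49 and 24.67 against 4.97 (2.33 ± 0.22, edgeR adjusted p = 0.000465). With equal cells per library the last value was 2.31 and was no longer called by edgeR (adjusted p = 0.276). DESeq2 called Abcg1 in all 3 classes. Its level was higher in each later class in all 3 libraries. The immature class held clusters 5 and 9, both made of cells from all 3 libraries. Abcg1 stood at 41.97 and 35.28 plain CPM against 9.46 within cluster 5 and at 19.4 and 15.18 against 2.06 within cluster 9. Summed markers of granulocyte-monocyte progenitors in the immature class were 6257 and 6220 CPM against 11260. The part of stage in the Abcg1 differences was not tested.

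Among 12 other SREBP-linked synthesis genes, 0 higher and 2 lower of 154 pairs were called. Among 7 ester and triglyceride storage genes, 1 higher and 1 lower of 96 pairs were called. The called share of all gene and class pairs was 1.79%. In basophils and mast cells, Acss2 (acetyl-CoA synthetase) stood at 85.1 and 81.44 CPM against 127.2 (−0.61 ± 0.17, edgeR adjusted p = 0.0293), Lpin1 (a phosphatidate phosphatase) at 22.36 and 20.04 against 42.69 (−1.02 ± 0.23, edgeR adjusted p = 0.00584) and Dgat1 (which makes triglyceride) at 49.07 and 57.56 against 89.72 (−0.74 ± 0.18, edgeR adjusted p = 0.00891). The class is the one with an unequal mix of clusters 10 and 23. Within cluster 10, Acss2 stood at 129.9 and 114.7 plain CPM against 132.7, Dgat1 at 83.35 and 92.26 against 97.64 and Lpin1 at 23.29 and 17.24 against 39.36. Within cluster 23, Acss2 stood at 43.14 and 48.44 against 54.35, Dgat1 at 15.31 and 23.38 against 16.47 and Lpin1 at 23.66 and 22.55 against 46.12. Lpin1 was thus lower in both clusters by about as much as in the class, while the Acss2 and Dgat1 differences were smaller within them. Beside them, 8 of 15 G2 and M phase genes were lower in the same class (Cenpe, a kinetochore motor, at 67.09 and 55 CPM against 106.9), where 7.03% of all genes were called. There 8 basophil and mast cell markers summed to 25130 and 30170 CPM against 59930, with both fusion libraries below for all 8. The part of these in the 3 lipid genes was not tested. In intermediate neutrophils Plin3, a lipid droplet coat gene, stood at 62.45 and 76.04 CPM against 43.17 (0.68 ± 0.22, edgeR adjusted p = 0.0418). Under the stricter cell filter its value was −0.08. Over all cells Soat1, which esterifies cholesterol for storage, stood at 20.51 and 24.11 CPM against 43.28 (−0.96 ± 0.14, edgeR adjusted p = 4.58e-05). Also over all cells, Acadvl, of mitochondrial fatty acid oxidation, was higher (0.46 ± 0.14, edgeR adjusted p = 0.0305), as was Lpcat3, a phospholipid remodelling enzyme (0.41 ± 0.14, edgeR adjusted p = 0.0463), and Elovl5, which lengthens polyunsaturated fatty acids, was lower (−0.45 ± 0.14, edgeR adjusted p = 0.0302). Npc1, which exports cholesterol from lysosomes and is named after its values were seen, was lower too, at 12.24 and 11.94 CPM against 16.64 (−0.46 ± 0.14, edgeR adjusted p = 0.0316). None of Soat1, Acadvl, Lpcat3, Elovl5 and Npc1 was called by edgeR in any class. Of all genes 15.8% were called in the all-cell sum, which also reflects unequal numbers of each cell type. Soat1 was highest in monocytes, at 126.9 and 157.7 CPM against 202, with 260 and 278 monocytes in fusion against 421 in wild type. The part of cell mix in these all-cell values was not tested. No gene was called in any class in the list of SREBP processing and degradation genes (83 pairs), the prenylation, dolichol and ubiquinone list (113 pairs) or the fatty acid oxidation list (167 pairs), by edgeR or DESeq2. At an unadjusted p under 0.05 these lists had 3, 4 and 6 higher pairs and 0 lower pairs each. In T, NK and innate lymphoid cells 4 of 15 G2 and M phase genes and 1 S phase gene were lower, with Rrm2, which makes deoxynucleotides, at 48.69 and 37.35 CPM against 124.2. The called share of all genes in that class was 2.27%. The member sum of that class was 746.5 and 763 CPM against 900.6, and the part of the cell cycle in it was not tested.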

How the data were processed

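The authors deposited UMI counts for each gene in each barcode, not normalized. The submitters' processing notes list GRCm38, Cell Ranger 5.0.1 and bcl2fastq 2.20.0.422, and the matrix headers Cell Ranger 5.0.0. Barcodes needed 1000 UMIs, 400 genes and no more than 10% mitochondrial UMIs, and scrublet doublets (expected rate 0.06) were removed. Cells were clustered without the members and related genes (scanpy 1.11.5, 2000 variable genes, 30 components, 15 neighbours, Leiden resolution 1) and classes named from marker lists. UMIs were summed per library and class and tested with edgeR 4.0.16 (quasi-likelihood, TMM, filterByExpr), with Benjamini-Hochberg adjustment over all genes of a class. CPM values use TMM library sizes unless called plain. DESeq2 1.42.0 was an alternative, and the fits were tested on simulated data. The members, lists and tests were chosen with earlier results of these data known. The naming of low-scoring clusters (score under 1) and intermediate neutrophils was set after seeing the clusters. Named were members called in any class, the 2 of highest mean CPM per role, members whose fusion libraries both differed from wild type by 1 log2 unit at a mean of 20 CPM or more, and up to 3 called genes per related list. SE is the standard error of the log2 fold change.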

Additional observations from a re-analysis of the deposited data

Results flagged for a closer look

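The ratio of fusion to wild type differed between mature neutrophils and erythroid progenitors for Sc5d, by −1.94 on the log2 scale (edgeR interaction term, Benjamini-Hochberg adjusted p = 3.15e-07), and for Scd2, by −1.26 (adjusted p = 0.00366). For both genes the 2 fusion libraries lay below wild type in mature neutrophils and above it in erythroid progenitors. These were 2 of 31 members, against 4.04% of all genes. Mature neutrophils of fusion and wild type fell in separate clusters and were not matched in stage by their markers. Scd2 had 30 and 31 UMIs in fusion and 46 in wild type in that class, and was not called in either class alone.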

How the results depend on the processing

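Limits: 1 wild-type library, 1 residual degree of freedom, and neutrophil clusters split by genotype. Members were called in 1 higher and 1 lower pair of class and member. The higher count was 3 with no filter on low counts, 0 with DESeq2, 4 with members allowed in clustering, 2 with doublets kept and 2 with a stricter cell filter. The lower count was 5, 0, 5, 7 and 5 under the same settings, 8 at Leiden resolution 0.5 and 2 at resolution 2. The count of members differing between mature neutrophils and erythroid progenitors was 2, and 10 at Leiden resolution 0.5. The causes of these shifts were not tested. Of 367 values of named genes under alternative settings, 296 kept their call or, without a test, their size, and 1 changed direction. The Sc5d value in mature neutrophils stayed between −1.92 and −1.15, the latter with mature and intermediate neutrophils joined. It was called by edgeR under all settings run, and DESeq2 ended the call. Scd1 in pro-B cells stayed between 0.94, with pro-B and pre-B to mature B cells joined, and 2.52, called by edgeR wherever the class was formed. Pmvk over all cells stayed between 0.60 and 0.80 and was called under every test run, DESeq2 included. Leaving out 1 fusion library gave 1.98 to 2.02 for Scd1 and −1.583 to −1.565 for Sc5d, as values without a test. Plin3 in intermediate neutrophils was −0.0787 under the stricter cell filter. No paired analysis was possible because the groups share fewer than 2 replicate numbers.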
